A study of Mus musculus with 6 samples.

Results

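Expression of 10 genes of vascular endothelial growth factor (VEGF) signalling and its regulators was followed in mouse bone marrow monocytes and macrophages, with and without human leukaemic B cells in the animal. The genes are the ligands Vegfa and Vegfb, the receptors Flt1 and Kdr, the co-receptors Nrp1 and Nrp2, the receptor kinase gene Tek, the co-receptor gene Eng, the inhibitor gene Thbs1 and Metrnl, which encodes a secreted protein. They were picked by name with earlier results of this comparison known, among them lower Vegfa, Flt1 and Thbs1 in the leukaemic mice. Their differences between the groups are therefore a description, and the adjusted p-values beside them place each probe within the fit over all probes and are no independent test. All probes annotated to these genes were taken, 10 of the 19057 genes named on the array, which gave 22 of its 45281 probes.

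VEGF-A is a secreted factor that drives the growth of blood vessels, and macrophages are one of its sources, with production known to rise when oxygen is low. It binds VEGFR1, encoded by Flt1, which monocytes carry and which takes part in their migration, and VEGFR2, encoded by Kdr, the main signalling receptor of endothelial cells. Neuropilins hold VEGF and semaphorins for partner receptors, thrombospondin-1 restrains vessel growth, and the angiopoietin receptor TIE2, encoded by Tek, is found on endothelium and on some monocytes.

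The cells came from BALB/c mice of the genotype Rag2-/-γc-/-, shared by both groups, which lack T, B and NK cells. In 3 mice, D, E and F, the cell line MEC1 had been given into a vein. MEC1 is a single established human line from a chronic lymphocytic leukaemia, so it stands for 1 leukaemia only. The 3 control mice, A, B and C, had no treatment by the labels. All mice were 11 weeks old and are labelled day 21, an early stage of leukaemia, and monocytes and macrophages were purified from marrow with magnetic beads. Each mouse gave 1 single-colour Illumina bead array, and the series asks how leukaemic cells change these marrow cells.

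The arrays were alike in the share of probes detected, 34.3% to 37.5%, and unlike in brightness. Median raw intensity was 114 to 131 in control mice and 70.7 to 87.6 in MEC1 mice. Pearson's r between arrays was 0.983 to 0.991 within the control group and 0.923 to 0.967 within the MEC1 group. All arrays lay on 1 chip, control mice at the first 3 positions and MEC1 mice at the last 3, so position and group cannot be fully told apart. Genes of several marrow cell types read near the top of the scale beside those of macrophages. Mean log2 intensity was 15.24 in control mice for lysozyme (Lyz2), 15.47 for the erythroid globin gene Hba-a1, 14.88 for the neutrophil gene S100a8 and 15.17 for the eosinophil gene Prg2. In such a mixture, fewer cells of a type and less RNA per cell cannot be told apart.

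Values below are log2 intensities after background correction and normalization, and a probe counts as detected where its detection p-value was under 0.05. Of the 22 probes, 9 were detected on no array and 13 passed the filter of detection on at least 3 arrays. These 13 belonged to 9 of the 10 genes. Among them the Flt1 probe passed through the control mice alone and the Kdr probe through the MEC1 mice alone. A probe is called where its Benjamini-Hochberg adjusted p in limma was under 0.05 over all 16460 tested probes. In the MEC1 mice 5 of the 13 probes were called lower, 0 were called higher and 8 were not called. At an unadjusted p under 0.05 in limma there were 8, against 3265 of all 16460 tested probes. Over all tested probes, 1.54% were called, 0.668% lower and 0.869% higher. The members were chosen on this contrast, so nothing is read from that gap. The called probes belonged to Vegfa (2 probes), Flt1, Thbs1 and Metrnl. The median log2 change was -1.20 over the 13 member probes and -0.02 over all tested probes. The groups did not overlap in 8 member probes, 7 of them lower and 1 higher in MEC1 mice, while 13.3% of all tested probes were lower and 14.4% higher with no overlap.

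**Figure D1:**
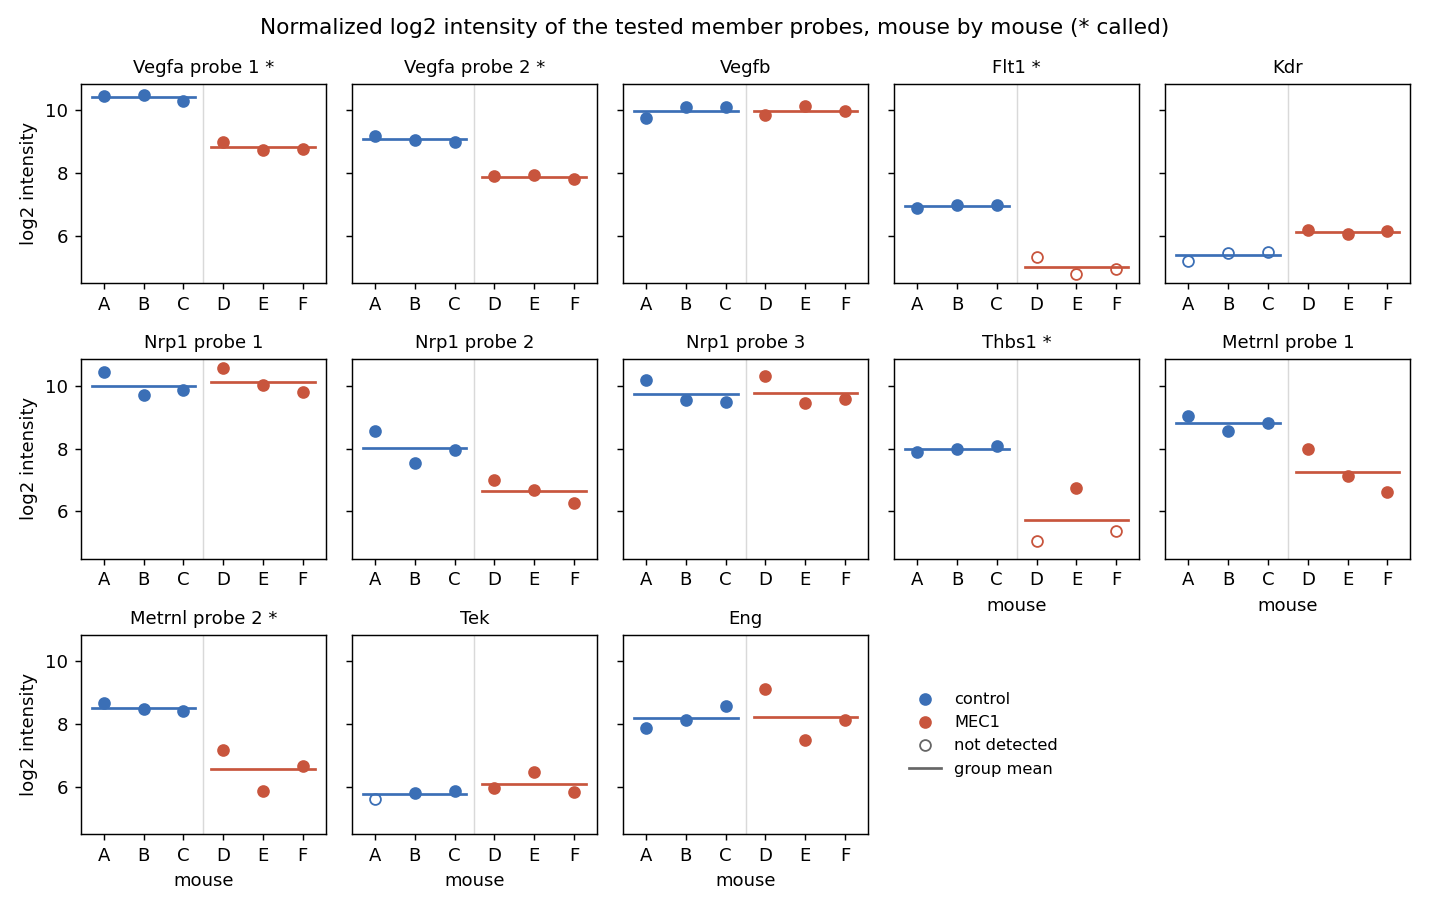
Normalized log2 intensity (y axis) of the 13 tested probes in each mouse (x axis), with control mice in blue, MEC1 mice in red and a line at each group mean. Open points were not detected, and a star marks the 5 called probes, in which the MEC1 mice lie below all control mice.

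The fall of Vegfa was seen at both of its detected probes. At the brighter probe the control mice A, B and C read 10.45, 10.48 and 10.31, and the MEC1 mice D, E and F read 8.97, 8.72 and 8.77. Every MEC1 mouse lay more than 1 log2 unit below the lowest control mouse, and the mice of a group lay close together. The means were 10.41 ± 0.09 and 8.82 ± 0.13 (SD, n = 3 each). Vegfa was thus 3.01-fold lower at this probe, which is -1.59 ± 0.17 (SE) in log2 (adjusted p = 0.00783 in limma). The second probe read 9.19, 9.06 and 8.99 in control mice and 7.91, 7.93 and 7.81 in MEC1 mice. Its log2 change was -1.20 ± 0.19 (SE; adjusted p = 0.0257), again with no overlap. The third Vegfa probe was detected on no array, although the annotation ties it to the same transcript, NM_001025250, as the second. The raw intensities of the brighter probe were 1989, 2008 and 1682 in control mice and 490, 243 and 384 in MEC1 mice, a wider gap that also holds the dimmer MEC1 arrays.

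Vegfb, the ligand that binds VEGFR1 and not VEGFR2, was not lower. It read 9.76, 10.10 and 10.10 in control mice and 9.86, 10.12 and 9.97 in MEC1 mice. The groups overlapped fully, at means of 9.99 ± 0.20 and 9.98 ± 0.13 (SD, n = 3). Its log2 change was smaller than 0.01 in size with an SE of 0.17 (adjusted p = 0.996). The difference between the 2 ligands was not tested.

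The receptor genes were dim. Flt1 was detected at 1 of its 2 probes, with 6.90, 6.98 and 6.97 in the control mice. In MEC1 mice that probe read 5.33, 4.78 and 4.94 and was not well above background on any of the 3 arrays. Flt1 was thus at least 2.21-fold lower with MEC1, taking the lowest detected signal of each MEC1 array as the floor where the probe lay below it. The adjusted p of 0.0129 in limma came from the values without that floor. This probe passed the detection filter only through the control mice, the group where it was high. The other Flt1 probe was detected on no array.

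Kdr gave the opposite picture at a level near the limit of detection. At 1 of its 2 probes the control mice read 5.21, 5.47 and 5.48, none of them detected, and the MEC1 mice read 6.21, 6.06 and 6.16, all of them detected. The groups did not overlap, and the signal was at least 1.37-fold higher in MEC1 mice, but the probe was not called (adjusted p = 0.127). It passed the detection filter only through the MEC1 mice. The detection p-values were 0.0791 to 0.170 in control mice and 0.015 to 0.0299 in MEC1 mice, so both groups lay near the line between detected and not detected. The other Kdr probe was detected on no array.

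The 3 probes of the co-receptor gene Nrp1 disagreed. The brightest, annotated to NM_008737, read 10.43, 9.71 and 9.88 in control mice and 10.56, 10.03 and 9.80 in MEC1 mice. The groups overlapped, with a log2 change of 0.13 ± 0.25 (SE; adjusted p = 0.803), and another probe of that transcript gave 0.04 ± 0.28 (SE; adjusted p = 0.951). The third, annotated to the cDNA clone AK030358, read 8.55, 7.54 and 7.94 in control mice and 7.0, 6.67 and 6.27 in MEC1 mice. It did not overlap between the groups and was not called, at -1.37 ± 0.33 (SE; adjusted p = 0.086). Where this clone lies relative to the main transcript was not analysed here. Nrp2, the second neuropilin gene, had 6 probes, and none was detected on any array, at log2 intensities of 4.62 to 5.48.

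Tek and Eng, receptor genes that endothelial cells and some myeloid cells share, were not called. Tek read 5.62, 5.81 and 5.88 in control mice, of which 2 were detected, and 5.96, 6.49 and 5.83 in MEC1 mice, all detected (log2 change 0.32 ± 0.26, SE; adjusted p = 0.507). Eng, which encodes the TGF-beta co-receptor endoglin, read 7.87, 8.12 and 8.58 in control mice and 9.10, 7.49 and 8.12 in MEC1 mice. Its MEC1 mice spanned the control range on both sides, at 8.24 ± 0.81 against 8.19 ± 0.36 (SD, n = 3; log2 change 0.05 ± 0.39, SE; adjusted p = 0.954).

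Thbs1, which encodes the angiogenesis inhibitor thrombospondin-1, was lower in MEC1 mice as well. Its single probe read 7.89, 7.99 and 8.07 in control mice and 5.06, 6.75 and 5.39 in MEC1 mice. All MEC1 mice were below the controls, mouse E least so, and mouse E was the only one of them in which the probe was detected. The log2 change was -2.25 ± 0.42 (SE; adjusted p = 0.0399), measured partly against undetected signal. Without mouse E the probe is undetected in all MEC1 mice left, so no size is given, and it was called (adjusted p = 0.0202). Without mouse F the log2 change was -2.11 and the call was lost (adjusted p = 0.0825).

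Metrnl, the gene of meteorin-like protein, a secreted factor made by activated macrophages among other cells, read lower at both of its 2 probes and was called at 1. That probe read 8.68, 8.46 and 8.41 in control mice and 7.17, 5.88 and 6.65 in MEC1 mice, a log2 change of -1.95 ± 0.34 (SE; adjusted p = 0.0318), or 3.86-fold lower. The other probe of the same transcript read 9.02, 8.55 and 8.83 against 7.99, 7.12 and 6.62 and was not called, at -1.56 ± 0.35 (SE; adjusted p = 0.0688). The groups did not overlap at either probe. At both, mouse D was the MEC1 mouse nearest to the controls.

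**Figure D2:**
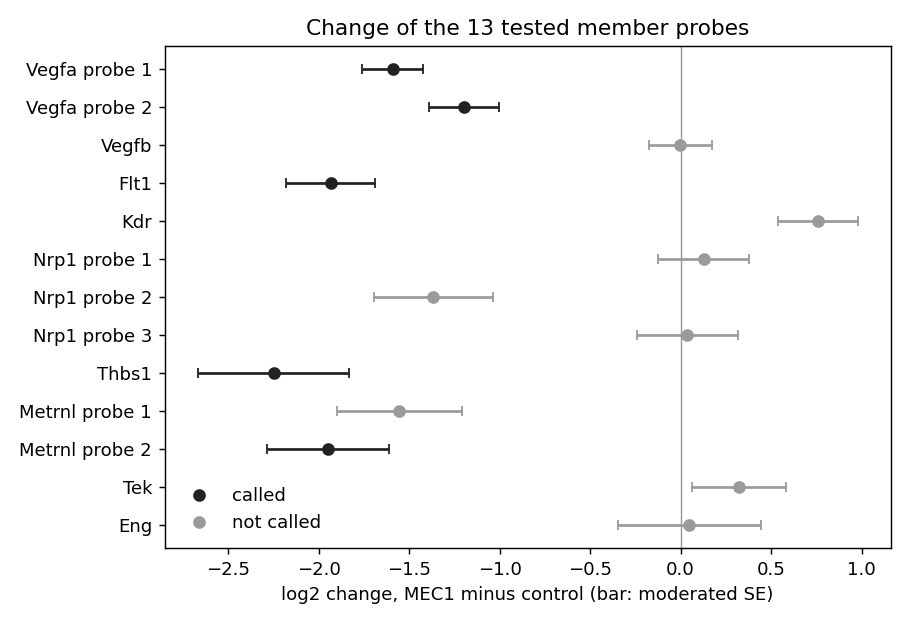
Log2 change, MEC1 minus control (x axis), of the 13 tested member probes (y axis), with bars of 1 moderated standard error. Dark points are the 5 called probes, between -2.25 and -1.20, and grey points were not called. Flt1 and Thbs1 are measured against undetected signal in 3 and 2 of the 3 MEC1 mice.

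Just inside the threshold lay Thbs1 (adjusted p = 0.0399) and the called Metrnl probe, and just outside it lay the second Metrnl probe (adjusted p = 0.0688) and the AK030358 probe of Nrp1 (adjusted p = 0.086). No member call survived the loss of a control mouse. Without control mouse A, B or C, 0 of the member probes were called in limma in each case, although 7 had an unadjusted p under 0.05 each time. Over all tested probes, 2009 of 16000, 1882 of 15744 and 1907 of 15868 had an unadjusted p under 0.05 in these fits, and 4, 8 and 4 were called. Leaving out a MEC1 mouse gave 7 member calls for D, 2 for E and 1 for F. Calls over all tested probes moved as well, at 1094 of 16000, 32 of 16071 and 42 of 16044. The log2 change of the brighter Vegfa probe stayed between -1.66 and -1.54 over the 6 fits without 1 mouse, and it was called in 3 of them. With chip position as a covariate 0 member probes were called, and several values moved. In that fit 6 member probes had an unadjusted p under 0.05 in limma, against 2397 of all 16460 tested probes. The Vegfa probes gave -1.33 and -0.97 (adjusted p = 0.216 and 0.332), Flt1 -1.70, Thbs1 -2.64 and the called Metrnl probe -1.36 (adjusted p = 0.247, 0.276 and 0.399). That Flt1 value is measured against undetected signal in every MEC1 mouse. The second Metrnl probe went from -1.56 to -0.39 and the AK030358 probe of Nrp1 from -1.37 to -0.36. The NM_008737 probes of Nrp1 went from 0.13 and 0.04 to 1.11 and 1.13 (adjusted p = 0.281 and 0.30).

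**Figure D3:**
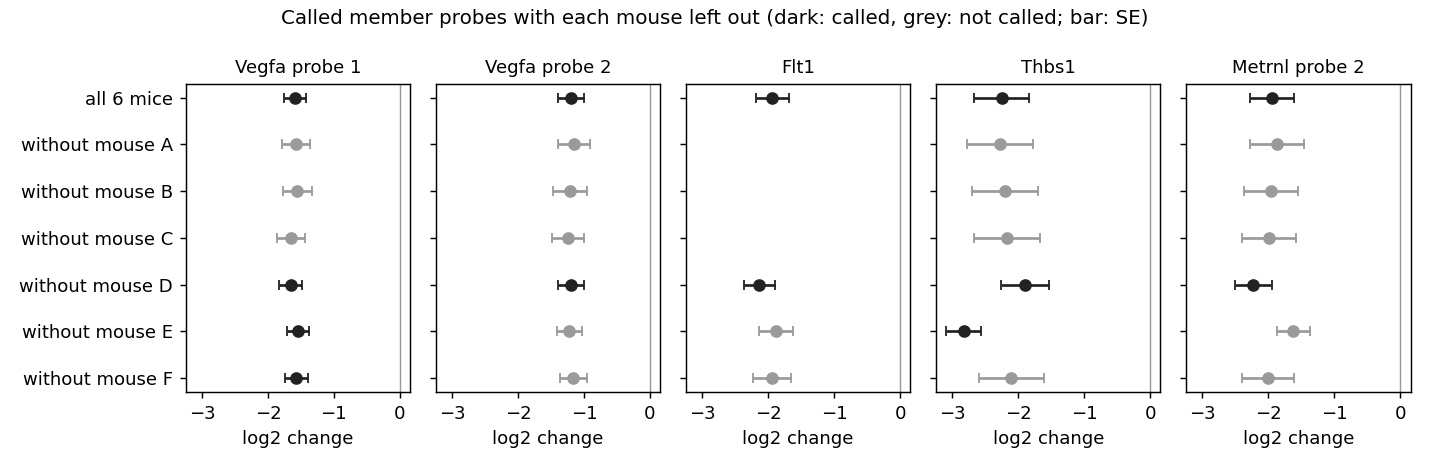
Log2 change (x axis, bars of 1 standard error) of the 5 called member probes with all 6 mice and with each mouse left out in turn (y axis). The points stay below 0 throughout and turn grey, not called, whenever a control mouse is left out. Flt1 has no value without a control mouse because it then fails the detection filter. The Flt1 points, and that of Thbs1 without mouse E, are measured against MEC1 mice that are all undetected.

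The promoters of the genes called lower are shown to set their sequences beside their shared direction, in windows from 250 bases before to 50 after a listed start of the gene (RefSeq, build GRCm38.p6). The Vegfa window is chr17:46032328-46032627 on the minus strand, the more upstream of the 2 listed for it. The Flt1 window is chr5:147725962-147726261 on the minus strand, and the Metrnl window is chr11:121702177-121702476 on the plus strand. The Flt1 window lies inside the gene, which spans 147561604 to 147726438, so it is not set on the outermost start. A window was found for 9 of the 10 genes, and Thbs1 was without one. Capitals mark SP1 boxes, GGGCGG on either strand, a motif chosen for display after the matches of all motifs searched had been counted.
Vegfa: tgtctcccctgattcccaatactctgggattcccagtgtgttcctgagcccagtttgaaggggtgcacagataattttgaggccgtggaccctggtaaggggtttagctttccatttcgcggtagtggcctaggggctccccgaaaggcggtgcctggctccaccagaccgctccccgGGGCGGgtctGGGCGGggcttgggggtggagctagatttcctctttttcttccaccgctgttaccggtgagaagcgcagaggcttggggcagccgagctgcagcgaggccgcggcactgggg
Flt1: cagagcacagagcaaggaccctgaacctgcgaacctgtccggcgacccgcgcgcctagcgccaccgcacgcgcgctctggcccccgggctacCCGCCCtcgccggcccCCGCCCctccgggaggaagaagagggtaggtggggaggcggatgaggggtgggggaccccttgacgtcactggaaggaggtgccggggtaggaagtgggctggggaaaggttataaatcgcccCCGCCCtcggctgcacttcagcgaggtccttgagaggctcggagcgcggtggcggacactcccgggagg
Metrnl: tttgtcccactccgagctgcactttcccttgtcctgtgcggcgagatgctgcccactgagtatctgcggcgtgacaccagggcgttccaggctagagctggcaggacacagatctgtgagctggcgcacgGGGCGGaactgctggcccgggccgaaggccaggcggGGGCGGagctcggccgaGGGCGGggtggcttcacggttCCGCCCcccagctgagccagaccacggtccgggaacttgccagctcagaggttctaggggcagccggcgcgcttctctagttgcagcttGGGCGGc

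All 3 windows were rich in G and C, at 62%, 70.7% and 68%. SP1 boxes numbered 2 in the Vegfa window, 3 in that of Flt1 and 5 in that of Metrnl, and 35.7% of all 32841 promoter windows of 300 bases held at least 1. The boxes were also present in windows of genes that were not called, 4 in that of Vegfb, 2 in that of Kdr and 1 in that of Nrp1. The window of Nrp2, which was not tested, held 5, and those of Tek and Eng held 0. The core of the hypoxia response element, ACGTG or GCGTG on either strand, was absent from the upstream Vegfa window. It was present once in those of Flt1 and Metrnl and at 2 places in the second Vegfa window, against 43.8% of all windows. The windows of Vegfb, Kdr and Nrp2 held it at 2 places each, that of Nrp1 at 1, and those of Tek and Eng at 0. The AP-1 site TGANTCA occurred in none of the 10 member windows and in 7.81% of all windows. Matches of different motifs did not overlap in the member windows. These matches describe the letters and show no binding.

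Around the members, other genes of the same pathways were read from lists written with earlier results of these data known. Of 208 such genes, 192 had a named probe and 111 were tested, each by its probe with the highest mean. Of these, 3 were called higher (Ldha, Pgk1 and Tnf), 0 were called lower and 108 were not called. At an unadjusted p under 0.05 in limma there were 30, beside 3265 of all 16460 tested probes. Over all 9089 tested genes 1.74% were called, 0.946% higher and 0.792% lower. The median log2 change of the 111 genes was -0.03, and that of all tested genes lay within 0.01 of 0.

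No other VEGF ligand or receptor could be tested. Vegfc, Vegfd and Pgf, the remaining ligands, were detected on no array. Flt4, the receptor of VEGF-C, had a detected probe on 1 array. The angiopoietin genes Angpt1 and Angpt2 were detected on 2 arrays and 1 array. In the angiopoietin and Tie list, 5 genes were tested and 0 were called. Angptl4, an angiopoietin-like lipase inhibitor, gave the smallest p there, at 7.21, 7.43 and 7.28 in control mice and 7.69, 8.0 and 8.06 in MEC1 mice (log2 change 0.61; adjusted p = 0.20). Dok2, an adaptor of TIE2, gave 0.34 (adjusted p = 0.346).

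The hypoxia list held changes in both directions. Of its 19 tested genes 2 were called higher and 0 lower, 10 had a log2 change below 0 and 9 above, and the median was -0.01. Ldha, the lactate dehydrogenase gene, read 12.29, 12.41 and 12.48 in control mice and 13.12, 13.05 and 13.07 in MEC1 mice, a log2 change of 0.68 ± 0.11 (SE; adjusted p = 0.0249). Pgk1, the phosphoglycerate kinase gene, rose by 0.83 ± 0.13 (SE; adjusted p = 0.0257). The glucose transporter gene Slc2a1 gave 0.90 ± 0.22 (SE; adjusted p = 0.0905) and the mitophagy receptor gene Bnip3l -0.53 (adjusted p = 0.093). The MEC1 mice lay above every control mouse for Ldha, Pgk1 and Slc2a1 and below every control mouse for Bnip3l. The relation of these genes to the lower Vegfa was not tested. Hif1a, which encodes the oxygen-regulated subunit of the factor itself, is named after looking at its values, which gave -0.89 with an SE larger than the change itself (adjusted p = 0.654). Scaling to a common median of all probes, an alternative added after seeing the data, lowered the median of all tested probes to -0.48. On that scale Ldha gave 0.36 and Pgk1 0.42, not called (adjusted p = 0.305 and 0.255), which relative to the common shift were 0.84 and 0.91.

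**Figure D4:**
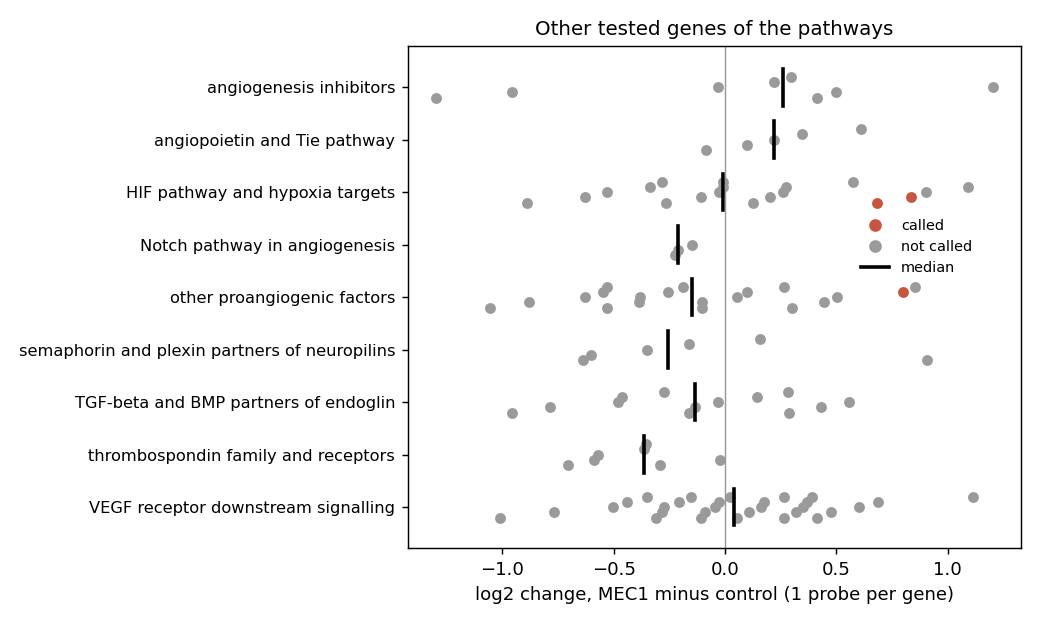
Log2 change, MEC1 minus control (x axis), of the other tested pathway genes, 1 point per gene, in 9 lists (y axis), with the median of each list as a black bar. Red points are the called genes, Ldha and Pgk1 in the hypoxia list and Tnf among proangiogenic factors.

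Among other proangiogenic factors, 1 of 20 tested genes was called higher and 0 lower. Tnf, the inflammatory cytokine, read 9.99, 10.06 and 10.10 in control mice and 10.68, 10.95 and 10.92 in MEC1 mice (log2 change 0.80 ± 0.15, SE; adjusted p = 0.0426), and its second probe gave 0.94 (adjusted p = 0.0343). Under scaling to a common median of all probes the list probe gave 0.28 and was not called (adjusted p = 0.522), and relative to the common shift it lay at 0.77. Hgf, the hepatocyte growth factor gene, gave -1.06 with 8.57, 7.79 and 7.92 against 7.35, 6.81 and 6.95 (adjusted p = 0.117), and the interleukin gene Il1b gave 0.50 (adjusted p = 0.121). Of 8 tested angiogenesis inhibitors beside Thbs1, 0 were called. The chemokine gene Cxcl10 gave 1.20 (adjusted p = 0.157) and the proteoglycan gene Dcn -1.30 (adjusted p = 0.183).

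The partners of the members were likewise not called by their list probes. Among thrombospondin relatives and receptors, all 7 tested genes had a log2 change below 0 at their list probe, with a median of -0.37 and 0 calls. The integrin genes Itgb1 and Itgav gave -0.57 and -0.71 (adjusted p = 0.267 and 0.275). Their other tested probes gave -0.005 for Itgb1 and -0.40 and 0.28 for Itgav, not called. Of 6 semaphorin and plexin partners of the neuropilins 0 were called. There Gipc1, an adaptor that binds the neuropilin tail, gave 0.90 (adjusted p = 0.128), and Sema4a gave -0.35 (adjusted p = 0.167). The other tested Gipc1 probes gave 1.38, 1.01 and 0.009, not called.

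Of 13 TGF-beta and BMP partners of endoglin 0 were called by their list probe. Id2, an inhibitor of DNA-binding proteins that BMP signals induce, gave -0.95 ± 0.23 (SE; adjusted p = 0.0897) at its list probe. Another Id2 probe was called, at -1.86 ± 0.24 (SE; adjusted p = 0.0136), and the remaining one gave -0.88 (adjusted p = 0.214). The type II BMP receptor gene Bmpr2 gave -0.78 (adjusted p = 0.129).

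Of 30 tested genes of signalling below the VEGF receptors 0 were called, with a median log2 change of 0.04. The focal adhesion gene Pxn gave 0.60 (adjusted p = 0.173) and the transcription factor gene Nfatc1 -0.77 (adjusted p = 0.20). In the Notch list 3 genes were tested and 0 called, with Notch4 at -0.22 and Notch1 at -0.21 (adjusted p = 0.70 and 0.749).

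Markers of other cells that carry these genes were read beside them. Of 20 endothelial markers, 7 to 11 were detected in control mice and 7 to 10 in MEC1 mice, and their summed normalized intensity was 2228 to 2745 and 2881 to 2955. The sum is weighted to the brightest genes, and the mean log2 intensity of the markers overlapped, at 5.93 to 6.16 and 6.01 to 6.17. Of the 20, 8 were detected on no array, among them Emcn, Robo4, Erg and Clec14a. Of the 10 tested, 0 were called, 8 had a log2 change above 0 and 2 below. Egfl7, a secreted endothelial factor and the brightest of them, read 9.48, 10.01 and 9.70 in control mice and 9.91, 10.06 and 10.11 in MEC1 mice (log2 change 0.30; adjusted p = 0.392). The other tested Egfl7 probes gave 0.57 and -0.16 (adjusted p = 0.306 and 0.773). Dimmer markers named next were picked after their values were seen, 1 of the 8 above 0 and both of the 2 below. The cadherin gene Cdh5 gave 0.49 (adjusted p = 0.269), detected in 1 control and 3 MEC1 mice. Plvap, a gene of endothelial diaphragms, gave -0.81 (adjusted p = 0.186) and the scavenger receptor gene Stab2 -0.50 (adjusted p = 0.381), each detected in 3 control mice and 1 MEC1 mouse. Of 12 megakaryocyte and platelet markers, whose cells store thrombospondin, 5 to 7 and 5 were detected, with sums of 990 to 1431 and 921 to 1407. Pf4, the brightest of them, gave a log2 change of 0.22 ± 0.44 (SE; adjusted p = 0.804). Of the 5 tested, 0 were called, 4 had a log2 change above 0 and 1 below. The part of these cells in the lower Thbs1 was not tested.

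The monocyte and macrophage markers themselves summed to 69507 to 71941 in control mice and 57279 to 58968 in MEC1 mice, where 12 to 13 of 14 were detected and 12. The sum is weighted to the brightest gene, Lyz2, at a mean log2 of 15.24 in control and 14.79 in MEC1 mice. Mean log2 intensity over the markers was 9.61 to 9.83 and 9.25 to 9.52. Of the tested markers, 9 had a log2 change below 0 and 3 above. Of the 12 tested, Fcgr1, an Fc receptor gene, rose (log2 1.77; adjusted p = 0.017), while the mannose receptor gene Mrc1 (-1.71; adjusted p = 0.0207) and Lyz2 (-0.45; adjusted p = 0.0491) fell. The Lyz2 probe read close to the highest value of the arrays, and the other 2 Lyz2 probes were not called, at 0.08 and -0.26 (adjusted p = 0.772 and 0.639). The erythroid markers summed to 76449 to 99722 and 35412 to 67556, with 8 of 8 detected on every array. Their mean log2 intensity was 11.89 to 12.61 in control mice and 10.51 to 11.88 in MEC1 mice, with every MEC1 mouse below every control mouse, although 0 of the 8 genes were called. Eosinophil markers summed to 52661 to 59474 and 56460 to 67605 (4 of 7 detected on every array). Basophil and mast cell markers summed to 17745 to 23444 and 16982 to 18749 (6 of 9) and neutrophil markers to 142861 to 164066 and 159574 to 164403 (9 of 10). Stromal markers summed to 1173 to 1855 and 971 to 1041, with 4 of 10 detected in control mice and 2 to 4 in MEC1 mice. The brightest genes of these lists were not called, with log2 changes of -0.42 for Hba-a1, 0.12 for Prg2, -0.16 for the mast cell protease gene Prss34, 0.27 for S100a8 and -0.22 for the actin gene Acta2 (adjusted p = 0.201, 0.415, 0.418, 0.105 and 0.532). The other tested Acta2 probes gave 0.37, 0.51 and -0.58, not called. Of the tested erythroid genes 8 were below 0 and 0 above, with a median log2 change of -1.04. Eosinophil genes were 1 below and 3 above (median 0.33), and basophil and mast cell genes 5 and 1 (-0.14). Neutrophil genes were 4 below and 5 above (0.04), and stromal genes 3 and 1 (-0.68). In each of these lists 0 genes were called. Hba-a1 read 15.47, the highest value of the arrays, in every control mouse (SD 0), so the size of its change is uncertain. The part of these cells in the lower Vegfa, Flt1, Thbs1 and Metrnl was not tested.

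Genes with the most similar pattern over the 6 arrays were listed for each member with a called probe, as a description. For Vegfa they were Rab33b (Pearson's r = 0.993), Rnase4 (0.993) and Trim8 (0.991), out of 9080 genes compared, of which 298 had r over 0.9. For Flt1 they were Rab33b (0.998), Dctn2 (0.997) and Sult1a1 (0.993). For Thbs1 they were Ankrd61 (0.993), Maob (0.992) and Usp15 (0.989), in each of which mouse E was the highest MEC1 mouse, as for Thbs1. For Metrnl they were Fam13b (0.998), Hexim1 (0.998) and Fndc3a (0.997), where mouse E was the lowest. All share the same 6 arrays and the same group difference, which raises r for any gene that differs between the groups. Picking by r over these arrays also picks genes with a like order of mice, so the place of mouse E adds nothing. In MEC1 mice Sult1a1 and Fndc3a were detected on 0 arrays and Ankrd61 on 1.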

How the data were processed

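RNA of marrow monocytes and macrophages from 3 control and 3 MEC1 mice was hybridised to 1 array each, and samples were grouped by their labels. The mice bear letters not shared between groups, so nothing was paired. Per the file headers, the authors deposited a non-normalized intensity and a detection p-value per probe. GenomeStudio is named in the submitters' processing notes, without a version. A second deposited table of processed intensity (column medians 100.7 to 100.8, normalization not stated) was tried in their place.

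Background correction and quantile normalization used neqc (offset 16, log2) in limma 3.58.1 under R 4.3.3. Probes with a detection p under 0.05 on at least 3 arrays were tested with lmFit and eBayes (trend, robust), adjusted over all of them by the Benjamini-Hochberg method. Of 45281 probes 34885 had 1 gene symbol, updated through the Entrez ID for 34807, 18 had several and 10378 were unnamed here. Where a group was undetected on all arrays, a fold is a lower bound. The steps were tested on simulated data. The number of arrays limits precision.

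The members and all lists were chosen with earlier results of these data known. Named genes are all member probes, called genes of each list with the 2 next smallest p (for marker lists, the brightest gene), and the 3 genes most like each member with a called probe. Alternatives covered normalization, background, filter, variance model, array weights, chip position and leaving out each mouse.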

Additional observations from a re-analysis of the deposited data

How the results depend on the processing

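Member probes called numbered 5, and 3 with detection required on all 6 arrays, where Flt1 and Thbs1 are no longer tested, 3 without trend and robust variance, and 0 with chip position as a covariate (limma; 6 at an unadjusted p under 0.05). Leaving out 1 mouse gave 0 to 7. Over all probes, 253 were called, with 95 without trend and robust variance, 581 with array weights, 0 with chip position (2397 at an unadjusted p under 0.05) and 4 to 1094 with 1 mouse left out. Scaling to a common median of all probes, added after seeing the data, shifted the median of tested probes to -0.48 and called 2111, of which 93.8% were lower, against 43.5%. Relative to that shift the brighter Vegfa probe lay at -1.63, Flt1 at -1.62, Thbs1 at -2.15 and the called Metrnl probe at -1.89. All Flt1 values in this section are measured against undetected signal in every MEC1 mouse, so their size is uncertain. Pathway genes called were 3, and 0 without trend and robust variance, 6 with array weights, 0 with chip position (24 and 16 at an unadjusted p under 0.05 where 0 were called), 18 under that scaling and 0 to 13 with 1 mouse left out. Beside those 24 and 16, 3218 and 2397 of all 16460 tested probes had an unadjusted p under 0.05 in limma.

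The called member probes kept their direction in every alternative that tested them. The log2 change of Thbs1 lost its call on scaling to the median of detected probes (adjusted p = 0.0715) and without trend and robust variance (adjusted p = 0.0734), where the called Metrnl probe lost its call too (adjusted p = 0.0612). The second Metrnl probe was called with no filter (adjusted p = 0.0485). Without background subtraction Flt1 gave -0.93, Thbs1 -1.23 and the called Metrnl probe -1.25, and with the authors' processed values -1.09, -1.38 and -1.36, all called. Values near 0 changed sign. Under scaling to all probes the NM_008737 probes of Nrp1 gave -0.40 and -0.50, Tek -0.019 and Eng -0.46, which relative to the common shift were 0.08, -0.02, 0.46 and 0.02. Eng gave -0.11 with array weights, and Vegfb gave 0.0037 on scaling to detected probes. With 1 mouse left out, Vegfb ranged from -0.12 to 0.059, the NM_008737 probes of Nrp1 from -0.086 to 0.34 and from -0.23 to 0.26, and Eng from -0.38 to 0.42. No paired analysis was possible because the groups share no replicate numbers. An offset of 50, a filter at a detection p under 0.01, no background subtraction and the authors' processed values changed no call of a member.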
